A study of Homo sapiens with 21 samples.

Results

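The 35 genes described here are transcriptional targets of p53, taken as a list of gene symbols and matched to the Ensembl identifiers of the count files. They make up 35 of the 53515 identifiers counted and of the 45100 that could be placed on the annotation. RNA sequencing had been done on 7 parental cancer cell lines and 10 drug-resistant lines derived from them by long culture at stepwise higher doses, in 21 libraries. The study asked what treatment-resistant lines share, and the question here is how p53 target genes were expressed in each line and how they differed between a resistant line and its parental line.

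HepG2, a liver cancer line, was the parental line of HepG2S1 and HepG2S3, both resistant to the kinase inhibitor sorafenib. PancVB, a name for the pancreatic line Panc 03.27, was the parental line of PancB1Q and PancB1V, both resistant to the nucleotide synthesis inhibitor 5-fluorouracil. The lung line HCC4006 was held as stocks HCC4006P1 and HCC4006P2, the parental lines of erlotinib-resistant HCC4006ER and gefitinib-resistant HCC4006GR, and HCC827P was the parental lung line of gefitinib-resistant HCC827GR. Both drugs inhibit the EGF receptor. In the ovary, UWB1.289 was the parental line of U10 and U100, resistant to the PARP inhibitor olaparib, and IGROV-1 of IGROV-1/CDDP, resistant to the DNA crosslinker cisplatin. There were 2 libraries for each of HepG2, HCC4006P1, HepG2S3 and HCC4006ER, and 1 for every one of the remaining 13 lines. Nothing states that paired libraries came from separate cultures, and a second label gives both HepG2 libraries, and likewise both HepG2S3 libraries, the same replicate number, so that p-values measure the spread between these libraries, which may be technical. Each resistant line is a single derived line, so that a difference from the parental line cannot be told apart from a difference between 2 cultures of the same origin.

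p53 is a transcription factor that is held at a low level by the ubiquitin ligase MDM2 and accumulates after DNA damage or other stress. It then binds response elements near its target genes, which halt the cell cycle, repair DNA, remodel metabolism or promote cell death, while targets such as MDM2 and PPM1D shut the response off again.

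The response element consists of a pair of half-sites with a consensus of 10 bases each, which reads the same on both strands. RefSeq promoter windows (GRCh38.p14, 250 bases before to 50 after a transcription start) were found for 28 of the 35 genes. An exact half-site stood in a window of 8 of these 28 genes (28.6%) and of 8.06% of all gene symbols with a window. A pair of half-sites with at most 2 mismatches in 20 bases, the core C and G kept in both and a spacer of at most 3 bases, stood in a window of 4 of the 28 genes (14.3%) and of 1.23% of all symbols. These 4 are shown because they place the known motif next to genes whose expression is described in the following paragraphs, with the half-sites in capitals, 5′ to 3′ on the plus strand. Coordinates are those of the printed stretch on GRCh37, the build of the count files, where each stretch occurred once on its chromosome. The MDM2 match lay in an intron and began at position −94 from a transcription start, at chr12:69202663-69202762. The FAS match lay in an exon of at least 1 transcript, at chr10:90751061-90751090. The AEN match lay upstream of the annotated gene, at chr15:89164497-89164570. The DDB2 match began 5 bases after a transcription start, in an exon, at chr11:47236490-47236550, and had 0 mismatches and a spacer of 1 base.
MDM2: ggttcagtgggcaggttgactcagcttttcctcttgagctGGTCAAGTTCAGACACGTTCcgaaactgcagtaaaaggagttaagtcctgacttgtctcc
FAS: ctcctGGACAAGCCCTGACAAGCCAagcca
AEN: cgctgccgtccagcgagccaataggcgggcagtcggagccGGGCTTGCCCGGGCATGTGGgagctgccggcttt
DDB2: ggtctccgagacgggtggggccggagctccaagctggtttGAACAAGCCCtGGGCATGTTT
These are matches of letters, and whether p53 was bound there was not measured in these files.

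Counts on genes ranged from 9851195 in HepG2S1 to 36639473 in HepG2 replicate 1. Levels are given in CPM, a gene's counts scaled to a common total over 36406 annotated genes, and 3 counts corresponded to between 0.1 CPM and 0.388 CPM. HCC4006P1 replicate 1 held no counts for the part of the genome from GARS1 on chromosome 7 onwards in the order of the file, which includes 6 of the 35 genes (RRM2B, TP53INP1, TNFRSF10B, ACER2, NINJ1 and EDA2R). For these 6, HCC4006P1 is given by replicate 2 alone and without a test against HCC4006ER. Of 6 liver markers, all were above 1 CPM in HepG2, with summed levels of 50334 and 35908 CPM, but none in HepG2S1 (sum 0.776 CPM), and 4 and 3 in the HepG2S3 libraries (sums 25.3 and 39.5 CPM). ALB, TTR, APOA1 and SERPINA1 were at 0 in HepG2S1. The matrix gene DCN was at 363 to 508 CPM in the HepG2S1 and HepG2S3 libraries and at 0.0335 and 0 in HepG2. None of the lung markers reached 1 CPM in HCC4006P1 or HCC4006ER, whereas HCC4006P2, HCC4006GR, HCC827P and HCC827GR expressed 2 or 3 of the 4. PAX8, a marker of ovarian carcinoma, was at 469 to 891 CPM in the 5 ovarian lines, but WT1 stayed under 1 CPM there. MUC16, another ovarian marker, was at 39.2 to 135 CPM in UWB1.289, U10 and U100, and under 1 CPM in IGROV-1 and IGROV-1/CDDP. It was highest in the lung line HCC827P, at 841 CPM. Of the pancreatic duct markers, KRT7 was at 0.77 and 1.78 CPM in HepG2 and at 3416 to 3780 CPM in the HepG2S1 and HepG2S3 libraries. SOX9 was at 287 and 323 CPM in HepG2 and at most 2.2 CPM in those libraries. KRT19 was also lower there.

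Among parental lines, the p53 target genes were most often highest in HepG2. HepG2 had the highest level of 16 of the 35 genes, IGROV-1 of 7, HCC4006P2 of 6, PancVB of 4 and UWB1.289 of 2, while HCC4006P1 and HCC827P led for 0. Among all 15843 genes with a mean of at least 1 CPM, HepG2 led for 13.8%, IGROV-1 for 22.9%, HCC4006P2 for 15.3%, PancVB for 13%, UWB1.289 for 16.1%, HCC827P for 10.8% and HCC4006P1 for 8.22%. UWB1.289 had the lowest level of 9 of the 35 genes, PancVB of 7, HCC827P and HCC4006P2 of 5 each, HCC4006P1 of 4, IGROV-1 of 3 and HepG2 of 2. Among all genes, these lines were lowest for 9.3%, 13.5%, 12.5%, 11.1%, 12.1%, 9.59% and 31.9%, in the same order. EDA2R was at 30.3 CPM in HepG2 and at most 2.47 CPM in the other parental lines. It reached a mean of 1 CPM through HepG2 alone, so that its place among the 16 was fixed. These are ranks of 7 lines, most with a single library, and carry no test.

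CDKN1A, which encodes the cyclin-dependent kinase inhibitor p21, was at 187 and 411 CPM in HepG2, at 173 CPM in HepG2S1, and at 156 and 130 CPM in HepG2S3. It was at 56.6 CPM in PancVB, 116 CPM in PancB1Q and 215 CPM in PancB1V. In the lung lines it was at 127 and 207 CPM in HCC4006P1, 163 and 137 CPM in HCC4006ER, 84.9 CPM in HCC4006P2, 282 CPM in HCC4006GR, 46.4 CPM in HCC827P and 117 CPM in HCC827GR. The ovarian lines spanned the lowest values, with 7.9 CPM in UWB1.289, 6.34 CPM in U10 and 17.4 CPM in U100, while IGROV-1 was at 76.1 CPM and IGROV-1/CDDP at 95.1 CPM. The resistant line was thus higher than its parent for both PancVB derivatives, both gefitinib-resistant lines, U100 and IGROV-1/CDDP, and the sorafenib-resistant libraries lay under both HepG2 libraries.

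MDM2 had a range of 2.66 over the lines on the log2(CPM + 1) scale, against 5.35 for CDKN1A. It was at 290 and 475 CPM in HepG2, 155 CPM in HepG2S1, and 127 and 130 CPM in HepG2S3. IGROV-1 and IGROV-1/CDDP, at 447 and 379 CPM, were the other lines with a high level. HCC4006P1 was at 125 and 193 CPM and HCC4006ER at 110 and 96.9 CPM. The remaining 10 lines lay between 69.8 CPM in U100 and 126 CPM in HCC827GR.

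**Figure D1:**
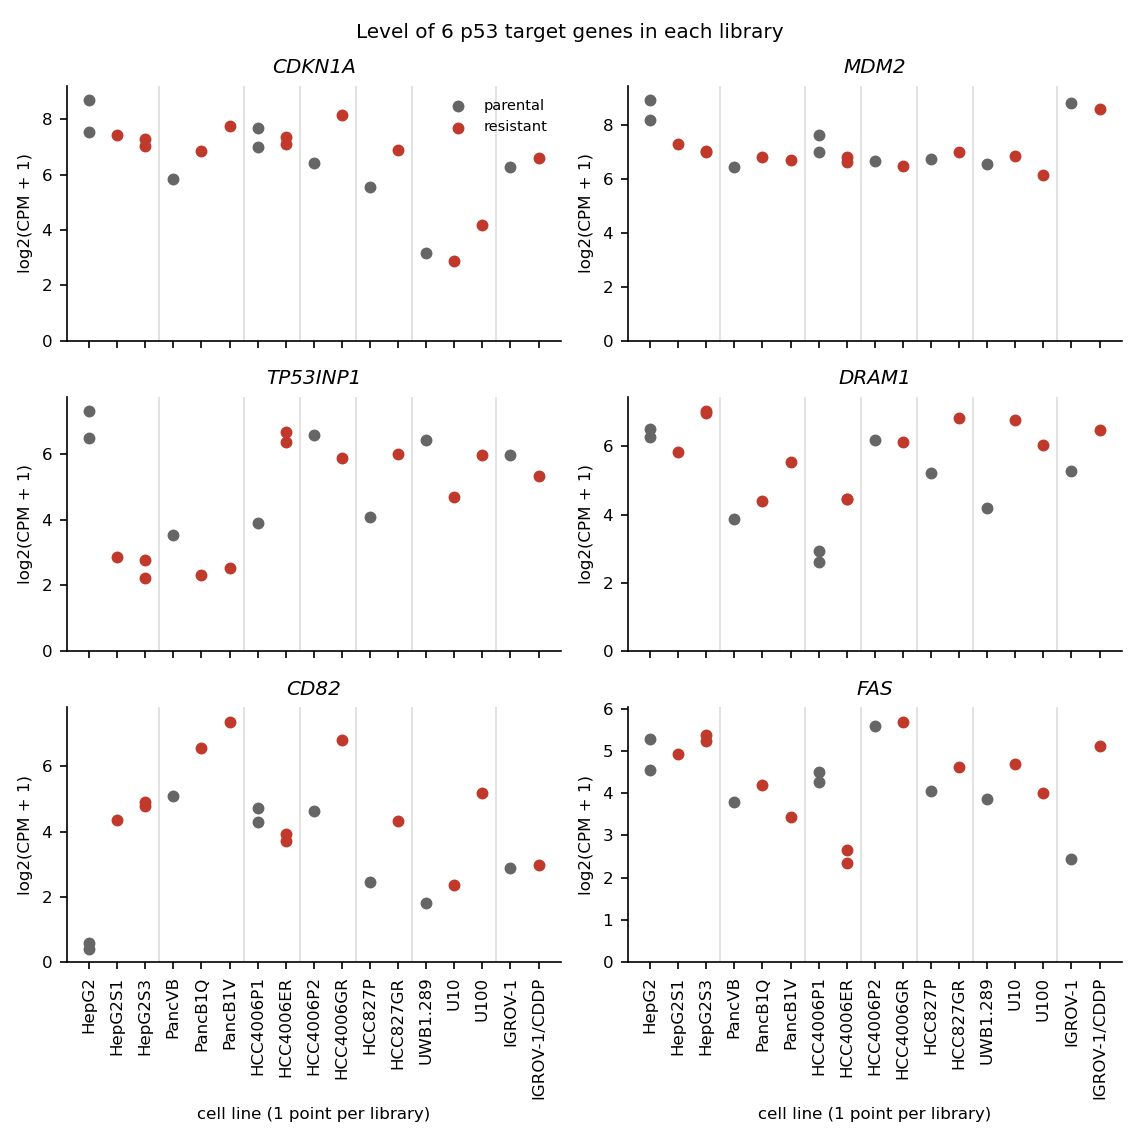
Level of 6 p53 target genes, as log2(CPM + 1), in each library, with lines on the x axis in blocks of 1 parental line (grey) and its resistant lines (red). CDKN1A was lowest in UWB1.289, U10 and U100 (6.34 to 17.4 CPM), and CD82 was under 0.5 CPM in both HepG2 libraries and at 19.5 to 29.1 CPM in HepG2S1 and HepG2S3.

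The widest ranges over the 17 lines were those of CD82, KITLG and CDKN1A. CD82, a tetraspanin of the cell surface, ranged from 0.399 CPM in HepG2 to 165 CPM in PancB1V, a range of 6.89 on the log2(CPM + 1) scale. KITLG, the ligand of the KIT receptor, ranged from 1.8 CPM in IGROV-1/CDDP to 201 CPM in HCC4006P2. BLOC1S2, XPC and CCNG1 had the narrowest ranges, 1.35, 1.77 and 1.59 on that scale. EDA2R, a death domain receptor, and SPATA18, a mitochondrial quality control gene, were high only in HepG2 (25.5 and 35.1 CPM for EDA2R, 21.2 and 23.2 CPM for SPATA18), and the mean level of every other line was at most 6.17 CPM for EDA2R and 6.36 CPM for SPATA18.

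Both sorafenib-resistant lines had lower levels of many p53 target genes than HepG2. In HepG2S3 against HepG2, all 35 genes passed the filter on low counts, 19 fell and 4 rose (edgeR quasi-likelihood test, adjusted p under 0.05). Of 18341 genes tested, 32.8% fell and 27.7% rose. The median log2 fold change was −0.77 over the 35 genes and −0.10 over all genes. SPATA18 passed the filter through HepG2 alone and CD82 through the resistant lines alone. Each was under 1 CPM in the other line compared, so that they had to differ. Without them, 18 of 33 genes fell and 3 rose.

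MDM2, PPM1D and FBXO22, which restrain p53, fell in HepG2S3. The MDM2 values above do not overlap between the lines, and MDM2 fell by 1.98 on the log2 scale (SE 0.25, adjusted p = 0.00147). PPM1D, a phosphatase that reverses p53 activation, was at 51.8 and 47 CPM in HepG2 and at 40.1 CPM in both HepG2S3 libraries, and fell by 0.71 (adjusted p = 0.00841). FBXO22, a ubiquitin ligase subunit, fell by 1.08 (adjusted p = 0.017). The PPM1D and FBXO22 calls were lost when either HepG2S3 library was left out.

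Of the 6 cell cycle and stress kinase genes, 4 fell in HepG2S3, beside 32.8% of all genes. CDKN1A fell by 1.47 (SE 0.37, adjusted p = 0.018), and this call was lost without HepG2S3 replicate 2. The 2 HepG2 libraries differed by more than 2-fold for this gene, while both lay above the HepG2S3 libraries. PLK3, a stress-responsive polo-like kinase, was at 27 and 23 CPM in HepG2 and at 6.93 and 8.24 CPM in HepG2S3, and fell by 2.13 (SE 0.20, adjusted p = 4.99e-04). CCNG1, cyclin G1, and BTG2, an antiproliferative factor, had log2 fold changes of −1.52 and −0.97 (adjusted p = 0.00148 and 0.00587), and BTG2 was lost without HepG2S3 replicate 2. GADD45A, a growth arrest gene, and PLK2 did not pass (log2 fold changes −0.11 and −0.67).

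Of the 8 genes of cell death and the stress response, 4 fell in HepG2S3, beside 32.8% of all genes. TP53INP1, a cofactor of p53 in stress signalling, was at 88.6 and 157 CPM in HepG2 and at 5.84 and 3.68 CPM in HepG2S3, and fell by 5.09 (SE 0.40, adjusted p = 2.67e-04). EDA2R was at 3.93 and 2.44 CPM in HepG2S3, and fell by 3.65 (SE 0.31, adjusted p = 3.60e-04). AEN, an apoptosis-enhancing nuclease, was at 180 and 194 CPM in HepG2 and at 50.9 and 54.3 CPM in HepG2S3, and fell by 2.24 (SE 0.14, adjusted p = 1.18e-04). TNFRSF10B, the death receptor for TRAIL, fell by 1.83 (SE 0.14, adjusted p = 2.45e-04). FAS, another death receptor, was at 22.5 and 38 CPM in HepG2 and at 40.7 and 36.9 CPM in HepG2S3. These groups overlapped and FAS did not pass (log2 fold change −0.04, SE 0.26, adjusted p = 0.895). PHLDA3, TP53I3 and TRIAP1 did not pass either, with log2 fold changes between −0.34 and 0.07. SPATA18, of the autophagy and mitochondria group, had 1 count in each HepG2S3 library against 635 and 653 counts in HepG2, a ratio of CPM of 562 with a 95% counting interval of 155 to 4648.

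DNA repair genes went in both directions in HepG2S3. DDB2, which recognizes ultraviolet-damaged DNA, was at 45.7 and 49.3 CPM in HepG2 and at 109 and 102 CPM in HepG2S3, and rose by 0.75 (SE 0.13, adjusted p = 0.00536). XPC, the damage sensor of nucleotide excision repair, was at 50 and 48 CPM in HepG2 and at 108 and 89.3 CPM in HepG2S3, and rose by 0.61 (SE 0.15, adjusted p = 0.0181). Both calls were lost when either HepG2S3 library was left out. RRM2B, the p53-inducible ribonucleotide reductase subunit, was at 87.8 and 206 CPM in HepG2 and at 36.1 and 31.5 CPM in HepG2S3, and fell by 2.53 (SE 0.41, adjusted p = 0.00368). The 4 genes with a paired motif in their promoter windows were thus split, with MDM2 and AEN lower, DDB2 higher and FAS not past the test.

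Metabolic genes past the test fell, and surface genes changed in both directions. FDXR, ferredoxin reductase, ACER2, a ceramidase, and SESN1, a sestrin, had log2 fold changes of −1.63, −1.93 and −0.77 (adjusted p = 0.00369, 0.00476 and 0.00618), and SESN1 was lost without either HepG2S3 library. SUSD6, a membrane protein, was at 44 and 61 CPM in HepG2 and 18.8 CPM in both HepG2S3 libraries, and fell by 1.89 (SE 0.20, adjusted p = 7.96e-04). TIGAR, a regulator of glycolysis, did not pass (log2 fold change −0.17). CD82 was at 0.301 and 0.497 CPM in HepG2 and at 29.1 and 26.5 CPM in HepG2S3, a fitted log2 difference of 5.71 (SE 0.28). This is given as a description because the gene passed the filter through the resistant lines alone. KITLG rose by 0.57 (SE 0.17, adjusted p = 0.0328), a call that was lost without either HepG2S3 library. NINJ1, a membrane protein of plasma membrane rupture, fell by 1.77 (SE 0.15, adjusted p = 3.41e-04), and TRIM22, an interferon-inducible gene, fell by 1.87 (SE 0.35, adjusted p = 0.00642).

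The second sorafenib-resistant line had 1 library, so that its p-values rest on the spread of the HepG2 and HepG2S3 libraries, which it was assumed to share. In HepG2S1 against the same HepG2 libraries, 21 of the 35 genes fell and 1 rose, while 25% of all genes fell and 22.3% rose (edgeR). The median log2 fold change was −1.04 over the 35 genes and −0.05 over all genes. SPATA18, EDA2R and CD82 were over 1 CPM in only 1 of the 2 lines, and without them 19 of 32 genes fell and 0 rose. TP53INP1, at 6.34 CPM, fell by 4.67 (SE 0.55, adjusted p = 0.00175). SPATA18 had 0 counts and was at least 57.2-fold lower than in HepG2 against a floor of 3 counts in this library. EDA2R had 1 count, a ratio of CPM of 233 with a 95% counting interval of 41.8 to 9214.

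Other genes past the test in HepG2S1 covered several roles. RRM2B was at 30 CPM and fell by 2.69 (SE 0.56, adjusted p = 0.0122). NINJ1 was at 24.3 CPM and fell by 2.60 (SE 0.21, adjusted p = 4.72e-04). FDXR was at 25 CPM and fell by 2.51 (SE 0.37, adjusted p = 0.00381). All 3 lay under both HepG2 libraries. TNFRSF10B, SUSD6, PLK3 and ACER2 had log2 fold changes of −2.30, −2.06, −1.89 and −2.60 (adjusted p = 5.11e-04, 0.00263, 0.00335 and 0.0117). MDM2 fell by 1.70 (SE 0.32, adjusted p = 0.00915). CDKN1A, at 173 CPM, lay below both HepG2 libraries but did not pass in edgeR (log2 fold change −1.18, SE 0.47, adjusted p = 0.0899), although DESeq2 called it. CD82 was at 19.5 CPM, a fitted log2 difference of 5.20 (SE 0.30), given as a description for the same reason as in HepG2S3.

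**Figure D2:**
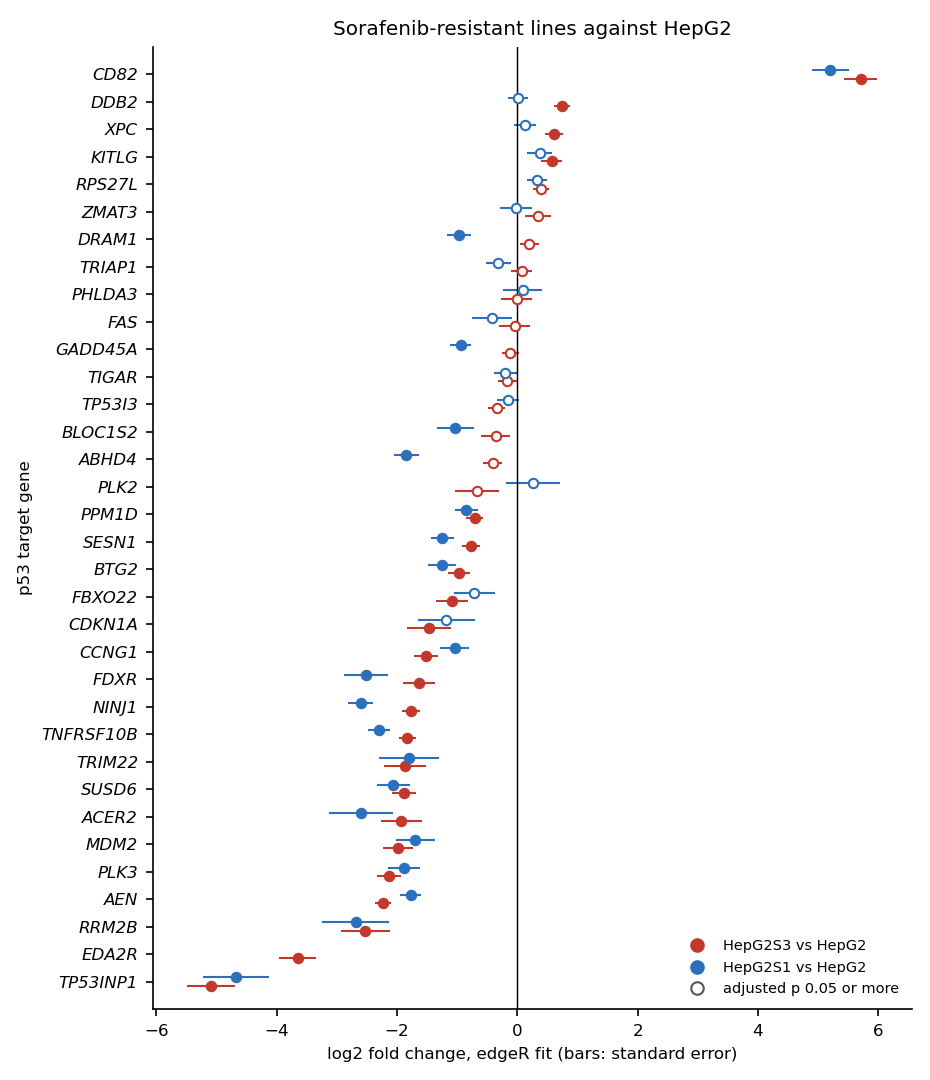
Fitted log2 fold change with standard error of the p53 target genes in HepG2S3 (red) and HepG2S1 (blue) against HepG2, where filled points have an adjusted p under 0.05 in edgeR. SPATA18 in both lines and EDA2R in HepG2S1 are left out because the resistant line had at most 2 counts. Most filled points lie left of 0, and CD82, which passed the filter through the resistant lines alone, lies at 5.71 and 5.20.

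In the direct comparison of HepG2S1 with HepG2S3, 0 of the 35 genes passed the test in edgeR, while 0.529% of all genes were higher and 0.0927% lower. At an unadjusted p under 0.05 there were 10 of the 35 genes, beside 2829 of all 18341 genes. DESeq2 called 6 (ABHD4, DDB2, DRAM1, EDA2R, GADD45A and NINJ1), all lower in HepG2S1, beside 766 of 14475 genes with an adjusted p. ABHD4, a lipid hydrolase, was at 21.9 CPM in HepG2S1 and at 57.5 and 61 CPM in HepG2S3 (log2 fold change −1.43, SE 0.21, adjusted p = 0.0697 in edgeR). DRAM1, a lysosomal regulator of autophagy, was at 56.1 CPM in HepG2S1 and at 125 and 130 CPM in HepG2S3 (log2 fold change −1.17, SE 0.20, adjusted p = 0.0943). EDA2R, GADD45A and NINJ1 had the next smallest p (adjusted p = 0.119, 0.14 and 0.158). With either HepG2 library left out, 21 genes were called, 6 higher and 15 lower. All genes were then called higher in 13.1% and lower in 15.4% (without replicate 1) or higher in 13.1% and lower in 15.5% (without replicate 2), so that the count depends on the spread between the HepG2 libraries.

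That spread involved the p53 target genes. In HepG2 replicate 2 against replicate 1, 29 of the 35 genes were higher, beside 6709 of all 13374 genes compared. The median log2 ratio was 0.26 over the 35 genes and 0.00 over all genes. CDKN1A, RRM2B and PLK2 were 2-fold or more higher and 0 genes as much lower, while 2.11% of all genes were 2-fold higher and 3.19% 2-fold lower. All 12 cell cycle genes repressed through the DREAM complex, such as CCNB1 (105 and 16.4 CPM) and PLK1 (133 and 25.5 CPM), were 2-fold or more lower in replicate 2. Their summed level was 922 CPM in replicate 1 and 163 CPM in replicate 2, and 2019 to 2311 CPM in the HepG2S1 and HepG2S3 libraries. Without HepG2 replicate 1, 26 of the 35 genes fell and 6 rose in HepG2S3, while 39.6% of all genes fell and 34.8% rose. Without replicate 2, 21 fell and 8 rose, while 39% of all genes fell and 34.7% rose. The paper reports low-coverage genome sequencing in which resistant lines differed little in copy number from their parents, except for the liver lines. The part of copy number, of the cell cycle difference and of the lost liver markers in the changes of the p53 target genes was not tested.

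**Figure D3:**
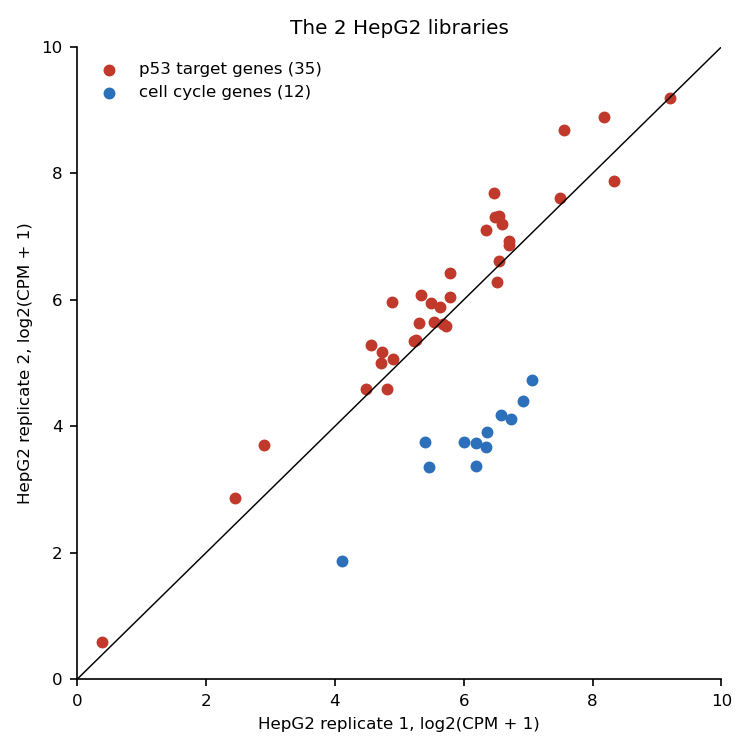
Level of the 35 p53 target genes (red) and of 12 cell cycle genes (blue) in HepG2 replicate 2 against replicate 1, both as log2(CPM + 1), with the line of equal levels. All 12 cell cycle genes lie below the line and 29 of the 35 p53 target genes above it. Among all genes, 6709 of 13374 were higher in replicate 2.

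Other genes of the pathway also moved in the HepG2 lines. Of 14 further p53 targets tested, 8 fell and 3 rose in HepG2S3, and 5 fell and 2 rose in HepG2S1 (edgeR). Among all genes, 32.8% fell and 27.7% rose in HepG2S3, and 25% fell and 22.3% rose in HepG2S1. GDF15, a stress cytokine, was at 820 and 716 CPM in HepG2 and at 63.9 to 85.2 CPM in the resistant libraries. BBC3, which encodes the apoptosis inducer PUMA, had log2 fold changes of −1.95 and −2.52 (adjusted p = 2.86e-04 and 6.66e-04), and SFN, the cell cycle inhibitor 14-3-3 sigma, rose by 2.87 and 2.62 (adjusted p = 1.43e-04 and 4.84e-04). Of the 12 cell cycle genes, 3 rose in HepG2S3 and 2 in HepG2S1, and 0 fell. They were called higher no more often than all genes, but each of them differed 2-fold or more between the 2 HepG2 libraries. In CPM + 1, all 12 were higher in HepG2S3 and in HepG2S1, with median log2 differences of 1.92 and 1.97. Among all genes, 60.3% and 59.2% were higher by this measure. The few calls thus do not show that the cell cycle genes stayed level.

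In erlotinib-resistant HCC4006ER against HCC4006P1, the p53 target genes went in both directions. Of 29 genes tested, 7 rose and 10 fell, while 24.1% of all genes rose and 24.9% fell (edgeR). The median log2 fold change was −0.15 over the 29 genes and 0.01 over all genes. SPATA18 was under 1 CPM in HCC4006P1 and passed the filter through HCC4006ER alone, and without it 6 of 28 genes rose and 10 fell.

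The largest falls in HCC4006ER were those of FAS and DDB2. FAS was at 21.6 and 18.3 CPM in HCC4006P1 and at 5.34 and 4.07 CPM in HCC4006ER, a log2 fold change of −2.16 (SE 0.20, adjusted p = 3.09e-04). DDB2 was at 38.7 and 47.4 CPM in HCC4006P1 and at 15 and 17 CPM in HCC4006ER, a log2 fold change of −1.51 (SE 0.18, adjusted p = 9.05e-04). The lines did not overlap for either gene. FBXO22, KITLG and CD82 had log2 fold changes of −1.10, −0.88 and −0.82 (adjusted p = 0.00161, 0.00316 and 0.0132), and CD82 was lost without HCC4006ER replicate 1. MDM2 had a log2 fold change of −0.72 (adjusted p = 0.0404), a call that was lost without HCC4006ER replicate 2. FDXR, TP53I3, a quinone oxidoreductase, ABHD4 and GADD45A had log2 fold changes of −0.73, −0.48, −0.44 and −0.38 (adjusted p = 0.0266, 0.0292, 0.0342 and 0.0458), and each of these 4 calls was lost when either HCC4006ER library was left out.

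Of the genes tested, DRAM1 rose the most in HCC4006ER. It was at 6.69 and 5.16 CPM in HCC4006P1 and at 20.9 and 21.1 CPM in HCC4006ER, a log2 fold change of 1.74 (SE 0.18, adjusted p = 5.03e-04). SPATA18 was at 0.658 and 0.452 CPM and at 1.63 and 2.1 CPM, a fitted log2 difference of 1.64 (SE 0.37) that DESeq2 did not call. SESN1 was at 3.57 and 8.13 CPM and at 18 and 13.5 CPM, a log2 fold change of 1.35 (SE 0.39, adjusted p = 0.0282). For DRAM1 and SESN1, both HCC4006ER libraries lay above both HCC4006P1 libraries. RPS27L, a ribosomal protein whose reads could be shared with its close copy RPS27, rose by 0.90, PLK2 by 0.86, CCNG1 by 0.82 and PPM1D by 0.52 (adjusted p = 0.00119, 0.00191, 0.00185 and 0.035). The PPM1D call was lost without either HCC4006ER library. CDKN1A overlapped between the lines and did not pass (log2 fold change −0.24, SE 0.25, adjusted p = 0.459).

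Some genes with HCC4006P1 replicate 2 alone differed by more. TP53INP1 was at 14.1 CPM in that library and at 101 and 81.7 CPM in HCC4006ER. EDA2R had 2 counts there and was at 5.53 and 6.81 CPM in HCC4006ER, a ratio of CPM of 47.8 with a 95% counting interval of 13.1 to 397. NINJ1 was at 36.3 CPM and at 81.4 and 87.5 CPM, and TNFRSF10B at 168 CPM and at 80.6 and 81.4 CPM. Of the further pathway genes tested, 1 of 12 other p53 targets rose and 5 fell, and 0 of 12 cell cycle genes rose and 5 fell. Among all genes, 24.1% rose and 24.9% fell. SFN was at 237 and 368 CPM in HCC4006P1 and at 1.7 and 1.85 CPM in HCC4006ER (adjusted p = 1.74e-05). Epithelial keratins moved with these changes, KRT19 from 1991 and 1896 CPM to 3.27 and 1.97 CPM, and their part in the result was not tested.

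**Figure D4:**
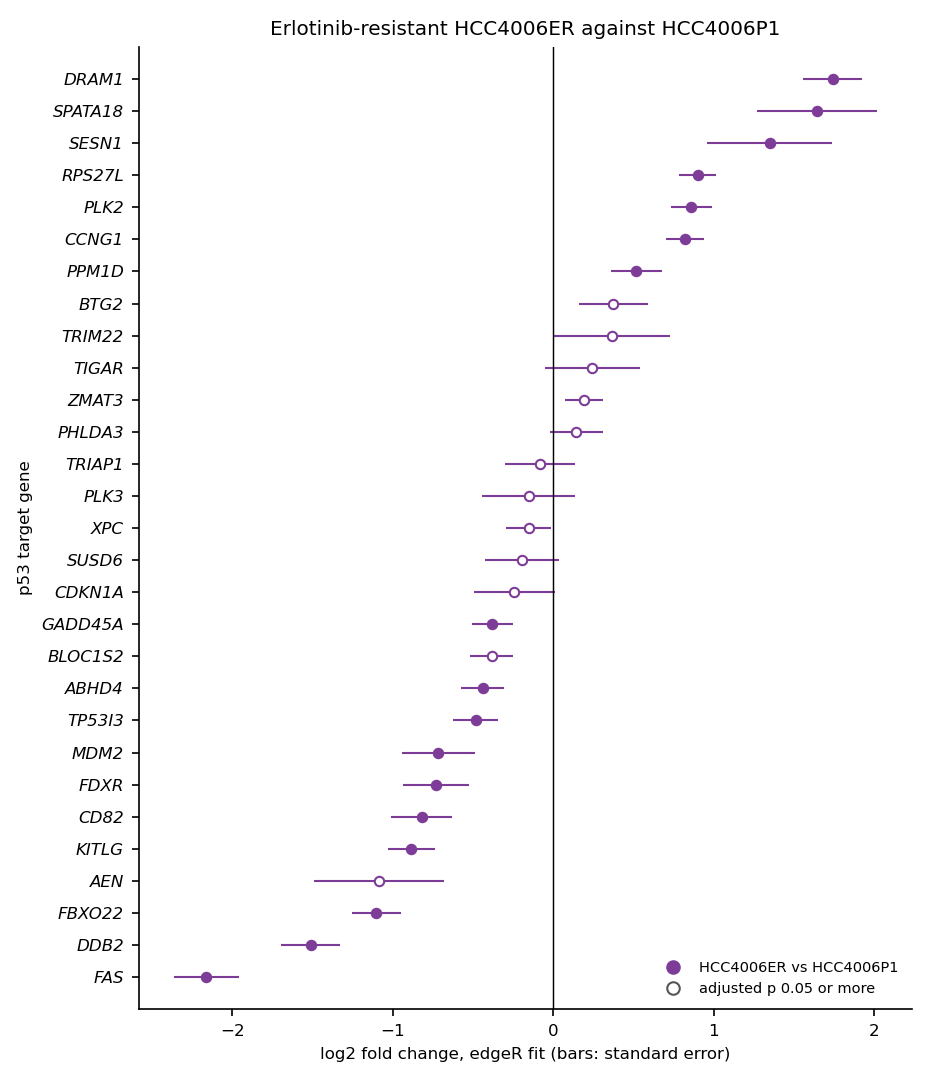
Fitted log2 fold change with standard error of the 29 p53 target genes tested in HCC4006ER against HCC4006P1, where filled points have an adjusted p under 0.05 in edgeR. Filled points lie on both sides of 0, from FAS at −2.16 to DRAM1 at 1.74.

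The changes in HepG2S3 and HCC4006ER were compared with each other in 1 fit of their 8 libraries. Of the 29 genes, 5 had a higher and 11 a lower log2 fold change in HepG2S3 than in HCC4006ER, while this held for 28.2% and 27.7% of all genes (edgeR), so that the genes were called about as often as all genes. DDB2, which rose in HepG2S3 and fell in HCC4006ER, differed by 2.37 (SE 0.24, adjusted p = 4.59e-05). CCNG1, which fell in HepG2S3 and rose in HCC4006ER, differed by −2.23 (SE 0.23, adjusted p = 5.70e-05). KITLG, which rose in HepG2S3 and fell in HCC4006ER, differed by 1.57 (SE 0.23, adjusted p = 4.62e-04). CD82 and SPATA18 were each under 1 CPM in at least 1 line, and without them 4 of 27 genes had a higher and 10 a lower change. SESN1 and PPM1D differed by −2.01 and −1.11 (adjusted p = 0.00589 and 0.00205) and went the opposite way. For CDKN1A the difference of −1.12 (SE 0.51) did not pass (adjusted p = 0.093).

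Across all 7 parental lines, 0 of 34 genes tested differed between the resistant and the parental profiles, and 0% of all genes were higher and 0% lower at this threshold in edgeR. A profile was the summed counts of a parental line or of all resistant lines derived from it. HCC4006P1 entered by replicate 2 alone for every gene. HCC4006P1 and HCC4006P2, stocks of the same line, counted as 2 of the 7. At an unadjusted p under 0.05 there were 2 of the 34 genes and 722 of 15847 genes, and DESeq2 called 97 genes, among them DRAM1. For counts of parental lines, the mean CPM of the resistant lines was compared with the parental mean. By this count DRAM1 was higher in the resistant lines of 6 of 7 parental lines. Its fitted log2 fold change was 1.22 (SE 0.31, adjusted p = 0.984 in edgeR). HepG2 was among these 6, although its 2 resistant lines lay on either side of it. DRAM1 was at 83.5 CPM in HepG2, 56.1 CPM in HepG2S1 and 127 CPM in HepG2S3 (fitted log2 fold changes −0.97 and 0.20). CD82 was also higher in 6 of 7, by 2.02 (SE 0.71, adjusted p = 0.984 in edgeR). FDXR, TP53I3 and FBXO22, the next by p, were each lower in 5 of 7, by log2 fold changes of −0.64, −0.55 and −0.44 (adjusted p = 0.984 for each). CDKN1A was higher and MDM2 lower in 5 of 7 (log2 fold changes 0.57 and −0.36, adjusted p = 0.984 for both). The 34 genes had a median log2 fold change of −0.04 and all genes of 0.01.

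The other 7 pairs had 1 library per line, so that their differences have no replicate check and the intervals given cover counting error only. A difference of 2-fold or more in CPM + 1 is given as a description. Counts are over genes with a mean of at least 1 CPM in the 2 lines of a pair.

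In the 5-fluorouracil-resistant lines, PancB1Q had 2 of 33 genes 2-fold higher and 1 lower than PancVB, against 6.7% and 9.46% of all genes. PancB1V had 3 of 33 higher and 4 lower, against 9.52% and 7.08%. CD82 was at 33.3 CPM in PancVB, 93.9 CPM in PancB1Q and 165 CPM in PancB1V, which is 1.47 (1.34 to 1.60) and 2.27 (2.15 to 2.40) higher on the log2 scale. CDKN1A was 1.03 (0.92 to 1.13) and 1.90 (1.80 to 2.00) higher, and DRAM1 was 1.66 (1.47 to 1.86) higher in PancB1V. TP53INP1 was at 10.7 CPM in PancVB and at 3.96 and 4.82 CPM in PancB1Q and PancB1V. PLK2, a stress-responsive kinase, was at 673 CPM in PancVB and 278 CPM in PancB1V, TP53I3 at 17 and 6.92 CPM and KITLG at 49 and 21.4 CPM. Both resistant lines were compared with the same PancVB library.

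In the gefitinib-resistant lines, HCC4006GR had 6 of 35 genes 2-fold higher and 1 lower than HCC4006P2, against 7.72% and 7.93% of all genes. HCC827GR had 8 of 33 higher and 0 lower than HCC827P, against 11.1% and 7.89%. GADD45A was at 22.9 CPM in HCC4006P2 and 115 CPM in HCC4006GR, 2.28 (2.09 to 2.46) higher. TRIM22 was at 27 and 134 CPM, 2.27 (2.10 to 2.44) higher, and CD82 at 23.8 and 112 CPM, 2.19 (2.01 to 2.38) higher. FDXR was at 13.8 and 5.46 CPM, a log2 difference of −1.20 (−1.55 to −0.83). In HCC827GR, TP53INP1 went from 16.1 to 62.4 CPM, CD82 from 4.48 to 19.1 CPM and PLK3 from 11.2 to 40.6 CPM, and NINJ1, DRAM1, RPS27L, CDKN1A and ABHD4 were also 2-fold higher. CDKN1A was thus 2-fold higher in both gefitinib-resistant lines, by 1.72 (1.61 to 1.82) and 1.31 (1.17 to 1.45). Cell cycle genes and lung markers moved in the same pairs. Of the 12 cell cycle genes, 12 were 2-fold lower in HCC4006GR and 8 in HCC827GR, with sums of 1154 and 281 CPM in HCC4006P2 and HCC4006GR and of 2331 and 1061 CPM in HCC827P and HCC827GR. The summed lung markers were at 330 and 26.3 CPM and at 125 and 38.5 CPM in these lines, and the part of either in the result was not tested.

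Among olaparib-resistant lines, U10 had 5 of 34 genes 2-fold higher and 2 lower than UWB1.289, against 6.42% and 5.61% of all genes. U100 had 5 of 34 higher and 0 lower, against 6.78% and 1.89%. DRAM1 was at 17.4 CPM in UWB1.289, 109 CPM in U10 and 64.1 CPM in U100, 2.58 (2.35 to 2.82) and 1.82 (1.58 to 2.07) higher. CD82 was at 2.48 CPM in UWB1.289, 4.18 CPM in U10 and 35.1 CPM in U100, 3.37 (2.90 to 3.80) higher in U100. In U10, KITLG went from 4.06 to 17.9 CPM and SUSD6 from 60.2 to 147 CPM, while TP53INP1 went from 85.6 to 24.9 CPM and CCNG1 from 281 to 98.6 CPM. In U100, TRIM22 went from 4.86 to 17.3 CPM. These 2 lines share the UWB1.289 library.

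In cisplatin-resistant IGROV-1/CDDP, 3 of 34 genes were 2-fold higher and 4 lower than in IGROV-1, against 5.59% and 7.6% of all genes. FAS went from 4.39 to 34 CPM, 2.70 (2.43 to 2.96) higher. PPM1D was at 30.5 and 125 CPM, 2.00 (1.87 to 2.12) higher, and DRAM1 at 37.7 and 88.5 CPM, 1.21 (1.09 to 1.33) higher. KITLG was at 6.84 and 1.8 CPM, TP53I3 at 18.2 and 6.14 CPM and BTG2 at 88.8 and 34.5 CPM, and TNFRSF10B was also 2-fold lower. MDM2 and CDKN1A, at 447 and 379 CPM and at 76.1 and 95.1 CPM, were not 2-fold different.

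**Figure D5:**
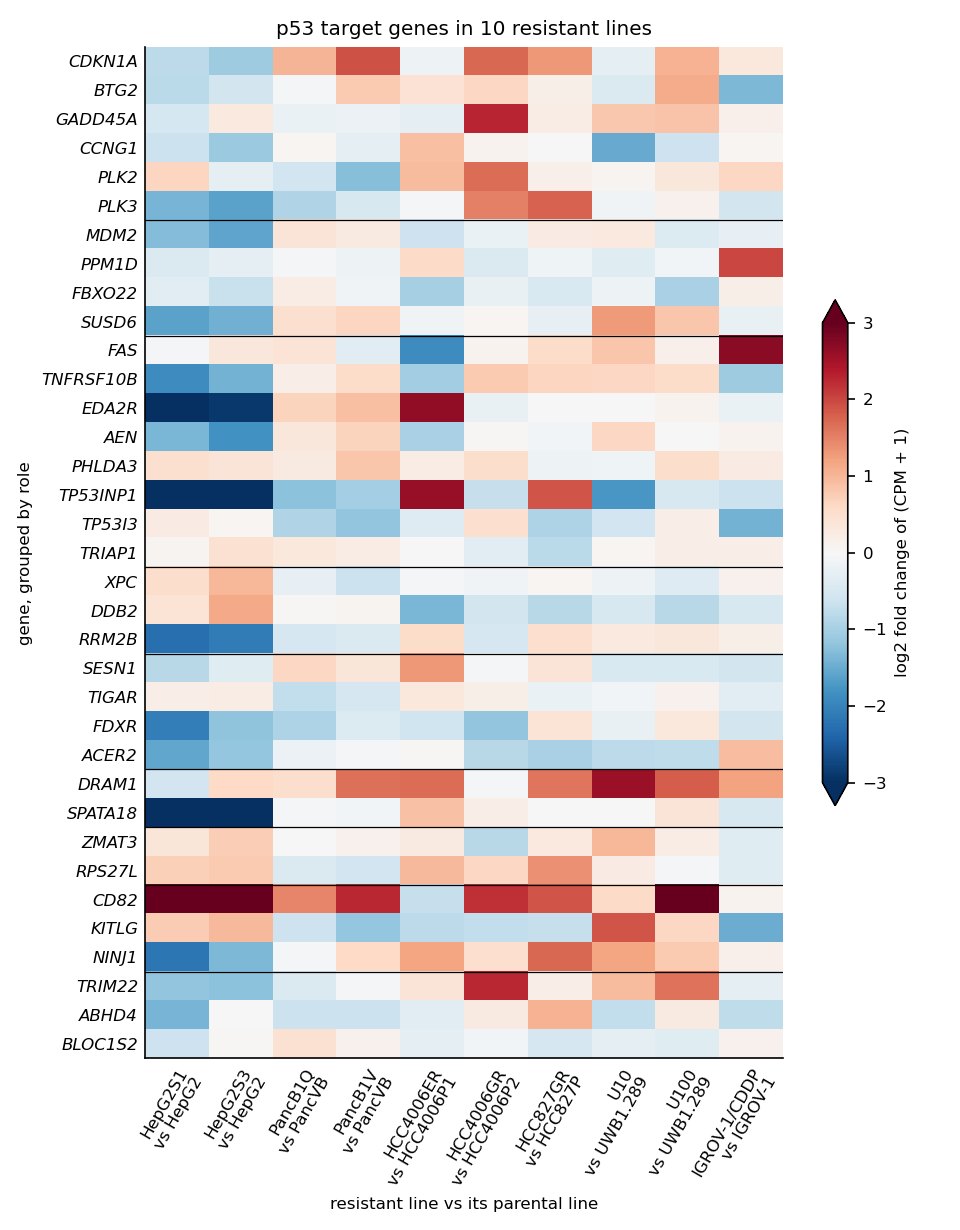
Log2 fold change of CPM + 1 for the 35 p53 target genes (rows, grouped by role) in the 10 resistant lines against their parental lines (columns), with values past 3 shown in the end colours. TP53INP1, SPATA18 and EDA2R are lowest in the HepG2S1 and HepG2S3 columns, and DRAM1 was 2-fold or more higher in PancB1V, HCC4006ER, HCC827GR, U10, U100 and IGROV-1/CDDP.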

How the data were processed

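Messenger RNA sequencing of 21 libraries was re-analysed from the files the authors deposited, which give counts of reads per Ensembl gene, not normalized. Per the paper's methods, libraries were made with a stranded mRNA kit or a 3′ kit and mapped with TopHat or STAR, and the submitters' processing notes name hg19, Bowtie, TopHat, SAMtools and HTSeq, while the sources used here do not resolve which libraries, if any, came from the 3′ kit. Lines of the files that name no gene were left out of all totals; they held 19.3% to 31.9% of a file's counts as reads placed at several positions and 7.98% to 16.4% as other reads, and 0 columns were unmatched. Groups were taken from the cell line label.

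Symbols and coordinates came from GENCODE v44lift37. CPM used 36406 genes outside the stretch without counts in HCC4006P1 replicate 1, so that the incomplete library has the same denominator, and pairs were compared as log2(CPM + 1). Tests used edgeR 4.0.16 (TMM, filterByExpr, quasi-likelihood, Benjamini-Hochberg over all genes, adjusted p under 0.05) in R 4.3.3, with DESeq2 1.42.0 as an alternative, and were tested on simulated data. In CPM, the median gene was 0.28 and 0.29 higher on the log2 scale in HepG2S1 and HepG2S3 than in HepG2, which the TMM scaling brings to −0.06 and 0.02.

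Intervals are 95% counting intervals and cover counting error only. CDKN1A and MDM2 were named in every library, then up to 10 called genes per direction, the 5 smallest p where none passed, and up to 3 per direction past 2-fold in each pair with 1 library per line. The p53 target genes and all other lists were chosen with earlier results of these data known. Same-numbered libraries share only a number. The list of pathway regulators is not reported here.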

Additional observations from a re-analysis of the deposited data

Results flagged for a closer look

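For 16 of the 29 p53 target genes tested, the change in HepG2S3 against HepG2 and the change in HCC4006ER against HCC4006P1 differed in the fit that tests this difference (edgeR, adjusted p under 0.05), beside 28.2% of all genes with a higher and 27.7% with a lower value in HepG2S3, so that the genes were called about as often as all genes. The difference was positive, that is, the log2 fold change was higher in HepG2S3, for CD82 (6.64), DDB2 (2.37), FAS (2.23), KITLG (1.57) and XPC (0.87). It was negative for CCNG1 (−2.23), TRIM22 (−2.13), SESN1 (−2.01), PLK3 (−1.86), SUSD6 (−1.59), DRAM1 (−1.43), PLK2 (−1.42), BTG2 (−1.24), MDM2 (−1.15) and PPM1D (−1.11). CD82 was under 1 CPM in HepG2 and passed the filter through the other lines. The MDM2 call was lost in 6 alternatives and the PLK2 call in 3, each of which left out 1 library. The fitted value of −10.87 for SPATA18 rests on 1 count in each HepG2S3 library and gives no reliable size. The HepG2 and HCC4006 lines differ in tissue and drug at once, and these cannot be told apart.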

How the results depend on the processing

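No p53 target gene that passed a test changed direction under any alternative run. Of the alternative values for called genes, 709 stayed past the threshold and 64 did not. Leaving out 1 library at a time gave between 15 (without HepG2S3 replicate 2) and 32 called genes in HepG2S3, 18 to 28 in HepG2S1, 11 (without HCC4006ER replicate 2) to 24 in HCC4006ER, and 14 to 19 in the difference between HepG2S3 and HCC4006ER. In HepG2S1 against HepG2S3 it gave 0 to 21, and DESeq2 gave 6. In the comparison of 7 profiles leaving out 1 parental line gave 0 each time and DESeq2 gave 1. With the incomplete stretch of HCC4006P1 replicate 1 kept, 9 genes were called in HCC4006ER, and the zeros of that library then enter the spread. The replicate block gave 24 called genes in HepG2S3, 20 in HCC4006ER and 17 in the difference, against 23, 17 and 16 without it. Deviations of same-numbered libraries correlated with 0.0151 for HepG2 and 0.275 for HCC4006, so that the numbers were not taken to pair libraries. In the 7 pairs with 1 library per line, 44 differences were past 2-fold, and 43 to 51 under another pseudocount, no filter and other scalings. HepG2 had the highest parental level of 16 genes in CPM as given, 19 with CPM over all counts and 21 with TMM scaling.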
